A study of Mus musculus with 11 samples.

Results

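Sodium and calcium channel genes of heart muscle were followed across hearts of adult and newborn mice, with and without overexpression of the nucleosome-binding protein HMGN5. The genes were chosen by name: Scn4a, Scn4b, Cacna1c, Cacna1g, Cacna1h, Cacnb2 and Cacna2d1. Of these 7 genes, 6 had a probe set with exactly 1 gene symbol, among 18194 genes in all, and Scn4a is not analysed here. These 6 genes had 13 of the 45101 probe sets. Where a gene had several such probe sets, the one brightest on average over the 11 arrays stands for it, and the others are given beside it. The values are log2 signals of Affymetrix arrays, made from total RNA that the series describes as left ventricle and the sample labels as heart. Transgenic mice (labelled HMGN5 transgenic, C57BL/6 background) carried a floxed LacZ cassette followed by the full-length mouse Hmgn5 cDNA with a FLAG tag, behind the CAG promoter. They also carried alphaMHC-cre, which removes LacZ in heart muscle cells. Control mice were labelled wild-type on the same background, and the labels do not say whether they carried cre or LacZ. The 4 groups held 3 adult transgenic, 3 adult control, 3 newborn transgenic and 2 newborn control arrays, labelled as biological replicates. The labels give no age in days. If the control mice did not carry cre, effects of cre and of Hmgn5 cannot be told apart. All p-values set a difference against the spread between these samples. In the main fit each gene's spread was estimated over all 4 groups together, and not within the compared groups alone.

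Voltage-gated sodium channels open first in a heart muscle cell and carry the upstroke of the action potential. Their pore subunit is joined by small beta subunits, of which Scn4b encodes one, that shift when the channel opens and closes. Calcium then enters through the L-type channel, whose pore subunit is encoded by Cacna1c, and this calcium triggers release from the internal store and contraction. The pore reaches the membrane and gates normally with the help of a cytoplasmic beta subunit (Cacnb2) and an extracellular alpha2-delta subunit (Cacna2d1). T-type channels, with pores encoded by Cacna1g and Cacna1h, open at more negative voltages and are known from fetal ventricle, the pacemaker and stressed adult heart. Scn4a encodes the sodium channel pore of skeletal muscle.

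The mean of 8 cardiomyocyte markers lay between 13.10 and 13.53 on every array, and 0 of them passed in adult transgenic hearts. Adult replicate 3 of both groups stood apart, with a mean of 12.18 (transgenic) and 11.89 (control) in the 18S ribosomal RNA control probe sets, against 7.64 to 8.58 on the other adult arrays. Newborn arrays read 10.05 to 10.53 there, and an effect of age cannot be told apart from one of how the arrays were run. The atrial markers Myl4, Myl7 and Sln averaged 10.53, 6.59 and 6.52 on adult transgenic replicates 1, 2 and 3, against 10.10, 10.38 and 12.24 on the controls. On newborn arrays they averaged 12.49 to 12.87, in tissue described as left ventricle. Of the full list of 8 atrial markers, 1 fell in adult transgenic hearts (Stard10, -1.78, limma adjusted p = 0.00317) and 1 rose (Dkk3, 1.78, adjusted p = 0.0377). Myl4, Myl7 and Sln were lower on average and did not pass, and Pam was 0.46 higher on average and did not pass (adjusted p = 0.554). The mean level of the 8 was 6.66 to 8.22 in adult transgenic and 7.84 to 9.14 in adult control hearts. In adult transgenic hearts 0 of 6 conduction system, 0 of 8 neural and 0 of 5 endothelial markers rose and 1 endothelial marker fell, while 2 of 8 smooth muscle and mural markers rose and 2 fell. Over all genes 4.16% rose and 2.93% fell in this comparison. The Hmgn5 probe set was not higher in hearts labelled transgenic (difference -0.16 in adults and -0.13 in newborns, limma adjusted p = 0.647 and 0.999985). Whether this probe set can read the transgene is not given, so each direction rests on the labels. In such bulk samples, fewer cells of a type and less RNA per cell cannot be told apart.

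Several of these genes are transcribed from more than 1 start, which is why their annotated start regions are shown as examples. RefSeq promoter windows (GRCm38.p6, 250 bases before to 50 after a start) were matched for 5 of the 7 genes, with 8 windows in all, 3 of them for Cacna1c and 2 for Cacnb2. The GC box GGGCGG, searched on both strands, was found in 3 of the 8 windows, against 35.7% of 32851 windows in the table. In Cacna1c it lay at 1 of 3 starts and in Cacnb2 at 1 of 2. Each line shows 1 match in capitals with its flanks, 30 bases in all, upstream of a start. The match is on the strand opposite to the printed one in Cacnb2 and Cacna2d1, so that it reads CCGCCC there.
Cacna1c, chr6:119108642-119108671, minus strand: gggcgcgggcagGGGCGGgcgcgggcgcgg
Cacnb2, chr2:14604209-14604238, plus strand: cctggagccagcCCGCCCagcagtcccagc
Cacna2d1, chr5:15934580-15934609, plus strand: cctccccgagacCCGCCCggggaaggcagc
A match is a description of the letters, and no binding was measured. The 1 Scn4b window held no GC box, and no match to the TATA box TATAAA, which 13.6% of all windows held and none of the 8.

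Scn4b was the 1 of 6 genes that fell in adult transgenic hearts. It read 4.87, 5.42 and 5.37 on the adult transgenic arrays, against 6.56, 6.29 and 6.17 on the adult controls. Every transgenic value lay below every control value. The mean was 5.22 ± 0.31 in transgenic hearts and 6.34 ± 0.20 in controls (SD, n = 3 each). This is a difference of -1.12 (SE 0.17, 95% interval -1.48 to -0.75, limma adjusted p = 0.00275), or 2.17-fold lower. Of all genes 7.09% were called in this comparison, 4.16% as higher and 2.93% as lower, and the 2 groups did not overlap for 17.9% of genes. The difference was -1.28 over replicates 1 and 2 and -0.79 within replicate 3. The transgenic array with the lowest Scn4b, replicate 1, was the one whose atrial markers were as high as on control arrays. With the mean of Myl4, Myl7 and Sln as a covariate the difference was -1.53 (adjusted p = 0.00498), and with the 6 adult arrays alone and this covariate it was -1.53 (adjusted p = 0.153), a fit that called 0 of all genes by limma (1266 at an unadjusted p under 0.05).

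In newborns Scn4b was in the lower part of the array's range. Its values were 4.27, 4.50 and 4.41 in newborn transgenic hearts, against 4.32 and 4.58 in newborn controls. The groups overlapped (difference -0.06, SE 0.19, 95% interval -0.47 to 0.35, adjusted p = 0.999985). These means lay at the 38.1 and 39.1 percentile of all probe sets, and the values used here carry no detection call. Scn4b was higher in adults than in newborns, by 0.83 (SE 0.17, adjusted p = 0.00301) in transgenic hearts and by 1.89 (SE 0.19, adjusted p = 3.32e-05) in controls. With the mean of Myl4, Myl7 and Sln as a covariate these were 0.18, which did not pass (adjusted p = 0.632), and 1.64 (adjusted p = 7.31e-05). The transgenic effect was lower in adults than in newborns by 1.06 (difference of effects -1.06, SE 0.25), which did not pass across all genes (adjusted p = 0.0974). It passed without adult transgenic replicate 3 (-1.14, adjusted p = 0.0386), without replicate 3 of both adult groups (-1.22, adjusted p = 0.0251), with that replicate as a factor (-1.06, adjusted p = 0.0496) and with array weights (-1.07, adjusted p = 0.0159). In the other 18 alternatives this difference of effects did not pass. In order of level, adult control came first and adult transgenic next, and the newborn groups came last and did not differ beyond their spread.

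**Figure D1:**
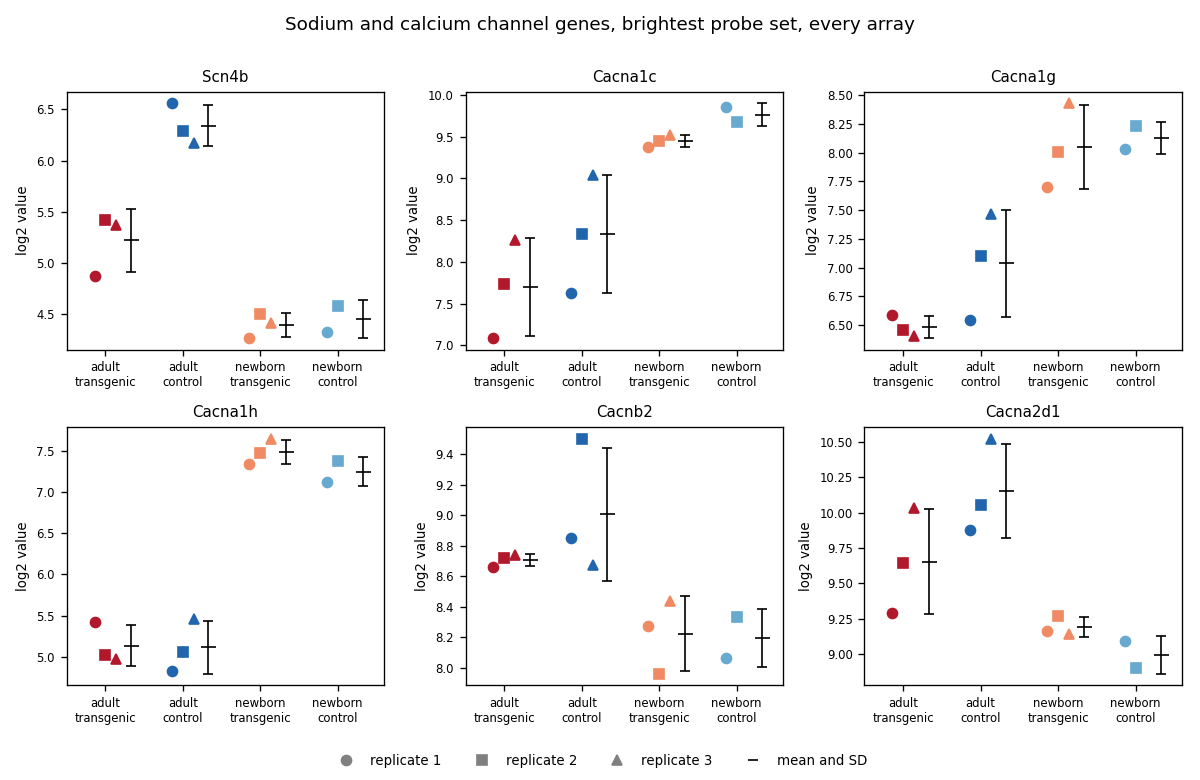
Log2 value (vertical axis) of the brightest probe set of each gene on every array, by group, with the marker shape giving the replicate number and black bars the mean and SD. Adult transgenic Scn4b lies between 4.87 and 5.42, below all adult controls, while Cacna1c, Cacna1g and Cacna1h are higher on every newborn array than on every adult array of the same genotype.

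Cacna1c, the L-type pore, was highest in newborns. The brightest probe set, 1435730_at, read 7.09, 7.74 and 8.26 in adult transgenic hearts, against 7.63, 8.33 and 9.04 in adult controls. The values spread over more than 1 log2 unit within each group and the groups overlapped. The difference of -0.64 (SE 0.34, 95% interval -1.38 to 0.10) did not pass (limma adjusted p = 0.333). It was -0.57 over replicates 1 and 2 and -0.78 within replicate 3.

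Newborn Cacna1c read 9.38, 9.45 and 9.52 in transgenic hearts, against 9.86 and 9.67 in controls. These groups did not overlap, as was so for 20.9% of all genes, and the difference of -0.31 did not pass (SE 0.38, adjusted p = 0.999985). Between ages the gene was lower in adults by 1.75 in transgenic hearts (difference -1.75, SE 0.34, adjusted p = 0.00233) and by 1.43 in controls (difference -1.43, SE 0.38, adjusted p = 0.0145). The transgenic call was lost with the atrial covariate (-2.10, adjusted p = 0.0746). The control call was lost without newborn control replicate 1 (-1.34, adjusted p = 0.108) or 2 (-1.52, adjusted p = 0.0584). The other probe set, 1421297_a_at, showed a smaller age difference that did not pass, at -0.62 in transgenic hearts (adjusted p = 0.209) and -0.35 in controls (adjusted p = 0.542). Its level was 8.02 ± 0.52 (n = 3) in adult transgenic and 8.52 ± 0.82 (n = 3) in adult control hearts, and 8.64 ± 0.13 (n = 3) in newborn transgenic and 8.87 ± 0.12 (n = 2) in newborn control hearts (SD). Both probe sets of Cacna1c were lower in adults on average, by different amounts, and where each lies on its transcripts is not given.

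Both T-type pore genes were lower in adults than in newborns. Cacna1h had the largest difference of the 6 genes between the ages in both genotypes, with 5.42, 5.02 and 4.97 in adult transgenic hearts, against 7.34, 7.47 and 7.64 in newborn transgenic hearts. In controls it read 4.83, 5.06 and 5.46 in adults, against 7.12 and 7.37 in newborns. All adult values lay below all newborn ones. The differences were -2.35 in transgenic hearts (SE 0.18, 5.08-fold, adjusted p = 4.87e-06) and -2.13 in controls (SE 0.20, 4.37-fold, adjusted p = 2.52e-05). The adult means lay at the 49.8 and 49.3 percentile of all probe sets in transgenic and control hearts.

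Between transgenic and control hearts no difference in Cacna1h was detectable with this number of arrays. In adults the difference was 0.02 (SE 0.18, 95% interval -0.38 to 0.42, adjusted p = 0.974), with -0.49 within replicate 3 and 0.28 over replicates 1 and 2. In newborns it was 0.24 (SE 0.20, adjusted p = 0.999985). A second probe set, 1427607_at, stayed between 3.83 and 4.50 on all arrays. It did not pass with age, at -0.32 in transgenic hearts (adjusted p = 0.0959) and -0.23 in controls (adjusted p = 0.291).

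Cacna1g read 6.59, 6.46 and 6.40 in adult transgenic hearts, against 6.54, 7.10 and 7.47 in adult controls. The transgenic arrays lay close together, and control replicate 1 fell among them. The difference of -0.55 (SE 0.23, 95% interval -1.06 to -0.05) did not pass (adjusted p = 0.203), but it passed without control replicate 1 (-0.80, adjusted p = 0.0416). It was -0.30 over replicates 1 and 2 and -1.07 within replicate 3, where the control array also had the highest atrial markers of the adult arrays. With the atrial covariate the difference was -0.27 (SE 0.32, adjusted p = 0.811). In newborns Cacna1g read 7.70, 8.01 and 8.43 in transgenic hearts, against 8.03 and 8.23 in controls, and the groups overlapped. Adults were lower than newborns by 1.56 in transgenic hearts (difference -1.56, SE 0.23, adjusted p = 4.59e-04) and by 1.09 in controls (difference -1.09, SE 0.26, adjusted p = 0.00859). The transgenic difference did not pass with the atrial covariate (-1.12, adjusted p = 0.127), and the control difference did not pass without newborn control replicate 2 (-0.99, adjusted p = 0.0691).

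The L-type auxiliary subunits among the 6 genes, Cacnb2 and Cacna2d1, were higher in adults on average. In the main fit, by their brightest probe sets, these age differences passed in controls only. In transgenic hearts they passed in 5 alternatives for Cacnb2 and in 3 for Cacna2d1. The difference between genotypes in the age effect did not pass for either gene. It was -0.33 for Cacnb2 (limma adjusted p = 0.850) and -0.69 for Cacna2d1 (adjusted p = 0.468). Cacnb2, the cytoplasmic beta subunit, read 8.66, 8.72 and 8.74 in adult transgenic hearts, against 8.85, 9.50 and 8.67 in adult controls. Control replicate 2 stood above the other 5 adult arrays. The difference of -0.30 did not pass (SE 0.20, 95% interval -0.74 to 0.15, adjusted p = 0.487), with -0.48 over replicates 1 and 2 and 0.07 within replicate 3. Newborn values were 8.27, 7.96 and 8.44 in transgenic hearts, against 8.06 and 8.33 in controls. Adults were higher than newborns by 0.48 in transgenic hearts, which did not pass (SE 0.20, adjusted p = 0.0784), and by 0.81 in controls, which passed (SE 0.23, adjusted p = 0.0189). The transgenic age difference passed without adult control replicate 2 (0.48, adjusted p = 0.0236), while the control one did not without newborn control replicate 1 (0.68, adjusted p = 0.159) or with the atrial covariate (0.70, adjusted p = 0.0708). The second probe set of Cacnb2, 1452476_at, gave 0.34 in transgenic hearts (adjusted p = 0.355) and 0.67 in controls (adjusted p = 0.127).

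Cacna2d1, the alpha2-delta subunit, was measured by 5 probe sets. The brightest, 1433643_at, read 9.29, 9.64 and 10.03 in adult transgenic hearts, against 9.88, 10.05 and 10.52 in adult controls. The groups overlapped by transgenic replicate 3 alone. The difference was -0.50 (SE 0.20, 95% interval -0.93 to -0.06) and did not pass over all genes (adjusted p = 0.183). It was the same size in both sets of adult arrays, -0.50 over replicates 1 and 2 and -0.49 within replicate 3. It passed with replicate 3 as a factor (-0.50, adjusted p = 0.0150), without replicate 3 of both groups (-0.50, adjusted p = 0.0464) and without transgenic replicate 3 (-0.68, adjusted p = 0.0309).

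In newborns the same probe set read 9.16, 9.27 and 9.14 in transgenic hearts, against 9.09 and 8.90 in controls. There was no overlap, as for 20.9% of all genes, and the difference of 0.19 did not pass (SE 0.22, adjusted p = 0.999985). Adults were higher than newborns by 1.15 in controls (SE 0.22, adjusted p = 0.00261). In transgenic hearts the age difference was 0.47 (SE 0.20) and did not pass (adjusted p = 0.0835), but passed without adult transgenic replicate 1 (0.65, adjusted p = 0.0314).

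The probe sets of Cacna2d1 disagreed on the transgenic effect in adults. Probe set 1440397_at read 7.45, 7.53 and 7.32 in adult transgenic hearts, against 7.01, 7.00 and 6.55 in adult controls. Every transgenic array was above every control, a difference of 0.59 (SE 0.15) that just missed the threshold (limma adjusted p = 0.0540, over all single-symbol probe sets). It was 0.49 over replicates 1 and 2 and 0.77 within replicate 3, opposite in sign to the brightest probe set in both. With age it ran the same way as the brightest probe set: 1440397_at was higher in adults by 2.03 in transgenic hearts (SE 0.15, adjusted p = 8.37e-06) and by 1.12 in controls (SE 0.17, adjusted p = 8.65e-04).

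Another probe set was high only on adult replicate 3 of both groups, the arrays with the highest 18S signal. In 18S the newborn arrays (10.05 to 10.53) also lay above the other adult arrays (7.64 to 8.58). Probe set 1449999_a_at read 9.73 on adult transgenic replicate 3 and 10.09 on adult control replicate 3, against 5.81 to 6.95 on the other 4 adult arrays and 5.32 to 6.19 in newborns. The same transgenic and control arrays read highest for 1441608_at (4.99 and 6.09) and for 1425861_x_at (4.17 and 3.52), whose other values stayed at or below 4.23. The part of array processing in these values was not tested. The age and transgenic differences of these 3 probe sets did not pass.

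**Figure D2:**
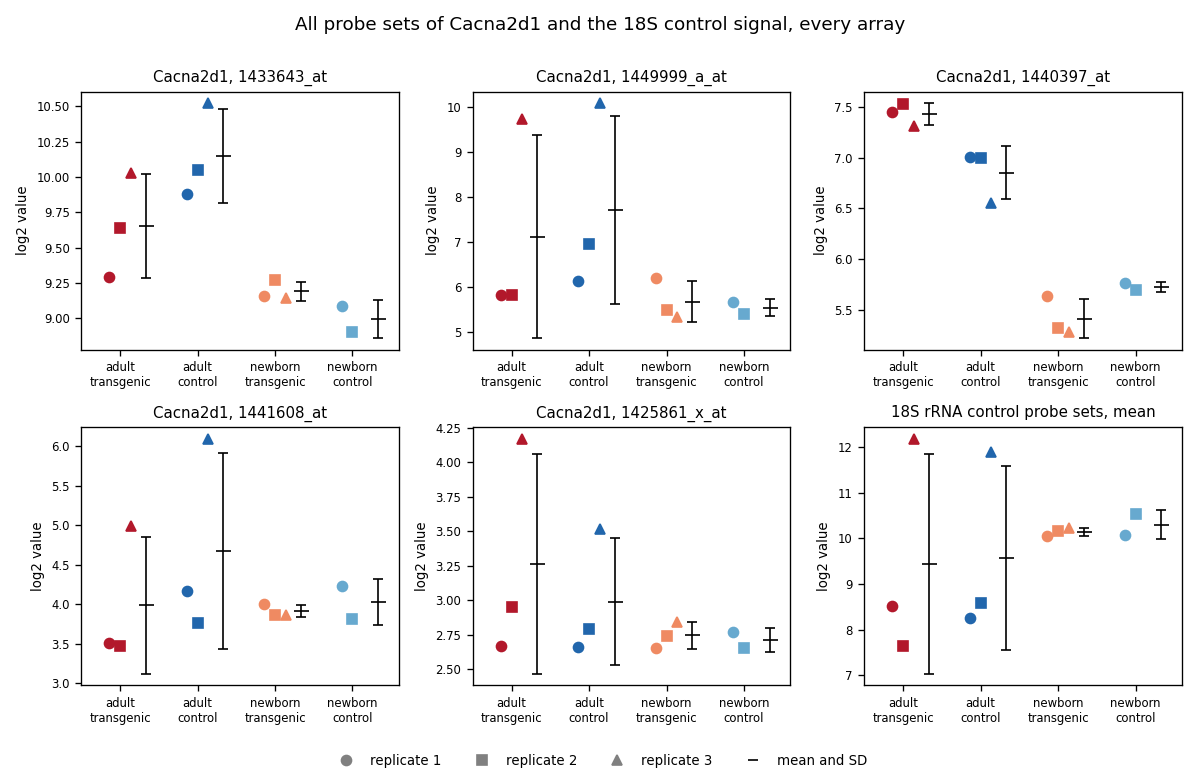
Log2 value (vertical axis) of the 5 Cacna2d1 probe sets and of the 18S control probe sets on every array, by group, with marker shapes for replicate numbers and black bars for mean and SD. Adult replicate 3 (triangles) of both groups is high for 1449999_a_at (9.73 and 10.09) and for 18S (12.18 and 11.89), and 1440397_at is higher in adult transgenic than in adult control hearts while 1433643_at is lower on average.

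Across the 6 genes, the comparison of transgenic with control adults gave 0 higher, 1 lower and 5 not passing, with a median difference of -0.53, against 0.00 over all genes. In newborns 0 of 6 passed and the median was -0.01. No gene of the array passed there by limma (percent called 0, and 198 genes at an unadjusted p under 0.05). The difference between the adult and newborn effects was called for 0 of 6 genes, against 0.687% of all genes, and the smallest adjusted p values of limma belonged to Scn4b (adjusted p = 0.0974) and Cacna2d1 (adjusted p = 0.468). With age, 3 of 6 were higher in adults and 3 lower in controls, where 33.0% of all genes were called, 14.9% as higher and 18.1% as lower. In transgenic hearts 1 was higher, 3 were lower and 2 did not pass, where 39.4% of all genes were called, 19.7% in each direction. All 6 genes had adult and newborn arrays that did not overlap in both genotypes, as did 54.6% of all genes in transgenic hearts and 63.6% in controls. The adult transgenic arrays enter both the transgenic and the age comparisons, so these values are set side by side and not tested against each other.

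**Figure D3:**
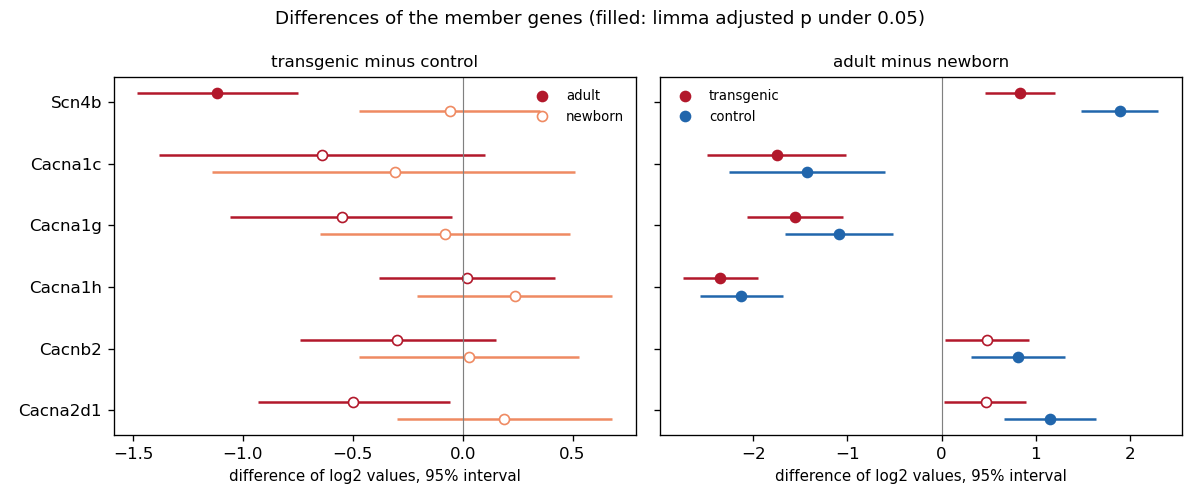
Difference of log2 values with 95% interval (horizontal axis) for each gene (vertical axis), transgenic minus control on the left and adult minus newborn on the right, with filled points where limma's adjusted p was under 0.05. Scn4b in adults (-1.12) is the filled point on the left, and on the right Cacna1c, Cacna1g and Cacna1h lie below 0 and Scn4b, Cacnb2 and Cacna2d1 above 0.

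Among other sodium and calcium channel subunits, 2 of 30 measured genes rose in adult transgenic hearts, 0 fell and 28 did not pass, with a median difference of 0.02. Of all genes 4.16% rose and 2.93% fell, so these counts are near the background. Scn7a, an atypical sodium channel that senses sodium rather than voltage, read 8.92, 9.29 and 8.91 in adult transgenic hearts, against 8.41, 8.10 and 8.21 in adult controls. The groups did not overlap, and the rise was 0.80 (SE 0.14, adjusted p = 0.00712), with 0.85 over replicates 1 and 2 and 0.70 within replicate 3. In newborns Scn7a read 5.84 ± 0.18 (n = 3) in transgenic and 5.95 ± 0.03 (n = 2) in control hearts (SD), so it was higher in adults by 3.20 in transgenic hearts (SE 0.14, adjusted p = 1.15e-07) and by 2.29 in controls (SE 0.16, adjusted p = 2.86e-06). Fibroblast markers were also higher on these arrays: their mean level lay between 10.05 and 10.51 in adult transgenic hearts, against 8.95 to 9.85 in adult controls, and 2 of 7 rose. Their part in the Scn7a values was not tested. The difference between the adult and newborn effects on Scn7a, 0.91 (SE 0.21), did not pass (limma adjusted p = 0.0984). The adult Scn7a call was lost with the 6 adult arrays alone (0.80, adjusted p = 0.0583), with the mean of its probe sets (0.67, adjusted p = 0.0581) and with the atrial covariate (0.69, adjusted p = 0.165).

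Cacnb1, the beta subunit of the skeletal muscle calcium channel, read 5.27, 5.22 and 5.52 in adult transgenic hearts, against 4.73, 4.61 and 4.60 in adult controls. It rose by 0.69 (SE 0.11, adjusted p = 0.00379), with 0.58 over replicates 1 and 2 and 0.92 within replicate 3. In newborns the order was turned, with 4.42, 4.51 and 4.46 in transgenic hearts, against 4.88 and 4.73 in controls (difference -0.34, SE 0.12, adjusted p = 0.999985). Cacnb1 was dim, and the values carry no detection call. Its means in adult control (4.64), newborn transgenic (4.46) and newborn control hearts (4.81) lay below the array medians (5.12 to 5.18). In adult transgenic hearts the mean was 5.34. The difference between the effects at the ages was 1.04 (SE 0.16, adjusted p = 0.0200), where 0.445% of all genes were called in this direction. It was the 1 of 30 subunits called there, and the call was lost without adult control replicate 2 (adjusted p = 0.0563) or without any 1 of the 5 newborn arrays (adjusted p from 0.0577 to 0.191). The suffix of its probe set, 1426108_s_at, marks probes shared by several transcripts. With the mean of all Cacnb1 probe sets the adult difference was 0.24 (adjusted p = 0.150). Of 11 skeletal muscle markers 1 rose in adult transgenic hearts, Tnnt3 (0.84, SE 0.18, adjusted p = 0.0169), and their mean level was 4.87 to 5.01 in adult transgenic and 4.60 to 4.93 in adult control hearts. The adult call of Cacnb1 was also lost with the 6 adult arrays alone (0.69, adjusted p = 0.0549), with the atrial covariate (0.60, adjusted p = 0.107) and with both (0.61, adjusted p = 0.607).

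Between ages, the other large difference among these subunits, after that of Scn7a, was in Cacna2d2, a second alpha2-delta gene, and it was opposite in sign to that of Cacna2d1. It read 5.26 ± 0.04 in adult transgenic and 7.86 ± 0.26 in newborn transgenic hearts (SD, n = 3 each), a difference of -2.60 (SE 0.21, adjusted p = 7.82e-06). In controls it read 5.21 ± 0.48 (n = 3) in adults and 7.44 ± 0.17 (n = 2) in newborns, a difference of -2.23 (SE 0.24, adjusted p = 5.72e-05). Counted over all 30 subunits, 10 were higher and 2 lower in adult than in newborn transgenic hearts, where 19.7% of all genes passed in each direction. In controls 5 were higher and 1 lower, where 14.9% of all genes were higher and 18.1% lower. Higher in both genotypes were Scn7a, Cacna1s (the skeletal muscle L-type pore), Cacng7, Scn2b and Cacna1b. Cacna1s was higher by 0.70 in transgenic hearts (SE 0.21, adjusted p = 0.0218) and by 1.17 in controls (SE 0.23, adjusted p = 0.00309). Higher in adult transgenic hearts and not passing in controls were Scn8a, Cacna1e, Cacnb1, Cacng1 and Cacng4, and Cacng6 was lower. For these genes other than Cacnb1 the difference between genotypes in the age effect did not pass (smallest limma adjusted p = 0.746, for Cacng1). Several of the named subunits were dim, and the values carry no detection call. All group means lay below the array medians (5.12 to 5.18) for Cacng1 (3.00 to 3.63), Cacna1s (3.51 to 4.71), Cacng4 (4.37 to 4.88) and Scn8a (4.53 to 5.02). In newborns 0 of the 30 passed between transgenic and control hearts (1 at an unadjusted p under 0.05).

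Of 22 measured genes that regulate these channels, 1 rose, 1 fell and 20 did not pass in adult transgenic hearts, with a median of -0.15. This is near the share over all genes, of which 7.09% were called. The number called depended on the processing. It was 4 with array weights or cyclic loess, 5 without replicate 3 of both adult groups and 1 with the compared groups alone. At an unadjusted p under 0.05 were 7 of the 22, against 3669 of 18194 genes. Bin1 (0.65, limma adjusted p = 0.0589) and Ank2 (-0.60, adjusted p = 0.0592) just missed the threshold. Gem, a small GTPase known to bind calcium channel beta subunits and reduce calcium current, read 6.24, 6.81 and 7.13 in adult transgenic hearts, against 5.29, 5.21 and 5.65 in adult controls. The groups did not overlap, and the rise was 1.34 (SE 0.23, adjusted p = 0.00562), with 1.27 over replicates 1 and 2 and 1.49 within replicate 3. Newborn Gem read 5.29 ± 0.26 (n = 3) in transgenic and 5.31 ± 0.28 (n = 2) in control hearts (SD). The difference between the adult and newborn effects on Gem, 1.36 (SE 0.34), did not pass (limma adjusted p = 0.120). The adult call of Gem was lost with the atrial covariate (1.04, adjusted p = 0.170). Rrad, a related GTPase of heart muscle, did not pass (-0.21, SE 0.32, adjusted p = 0.804). Akap7, an anchor that holds protein kinase A near the L-type channel, read 7.13, 7.44 and 7.48 in adult transgenic hearts, against 7.72, 7.85 and 7.79 in adult controls, a difference of -0.44 (SE 0.12, adjusted p = 0.0477). This call was close to the threshold and was lost in 19 of 24 alternatives, among them without any 1 of 5 adult arrays (all but transgenic replicate 3). In newborns 0 of the 22 passed, and 0 had an unadjusted p under 0.05. The difference between the adult and newborn effects passed for 0 of the 22.

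Fgf12, an intracellular partner of sodium channels, had the largest age difference among the regulators. It read 5.98, 5.20 and 5.17 in adult transgenic hearts, against 8.76, 8.64 and 8.13 in newborn transgenic hearts (difference -3.06, SE 0.31, adjusted p = 3.62e-05). In controls it read 5.65, 5.53 and 6.68 in adults, against 8.59 and 8.43 in newborns (difference -2.55, SE 0.35, adjusted p = 2.99e-04). No transgenic effect on Fgf12 passed in adults (-0.50, SE 0.31, adjusted p = 0.433), where the difference was 0.00 over replicates 1 and 2 and -1.51 within replicate 3. Its relative Fgf13 did not pass either (-0.74, SE 0.24, adjusted p = 0.0942). Also lower in adults of both genotypes were Nedd4l, a ubiquitin ligase that acts on sodium channels (-1.32 in transgenic hearts, adjusted p = 3.67e-04, and -1.11 in controls, adjusted p = 0.00243), and Cav3, the caveolin of muscle (-0.77, adjusted p = 0.00459, and -0.99, adjusted p = 0.00238). Gpd1l, whose human counterpart affects sodium current, was higher in both (0.85, adjusted p = 6.86e-04, and 0.94, adjusted p = 8.39e-04). In all 3 regulators were higher and 5 lower in adult transgenic hearts, the others being Gem and Rem2 (higher) and Nos1ap and Vamp2 (lower). In controls 2 of 22 were higher and 4 lower, the others being Rangrf (higher) and Bin1 (lower). The difference between genotypes in the age effect passed for 0 of the 22 (smallest limma adjusted p = 0.120, for Gem). Over all genes 19.7% passed in each direction in transgenic hearts, and 14.9% were higher and 18.1% lower in controls. The counts of regulators are thus near or below the background. The group means of Rem2, 3.66 to 3.99, lay below the array medians.

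**Figure D4:**
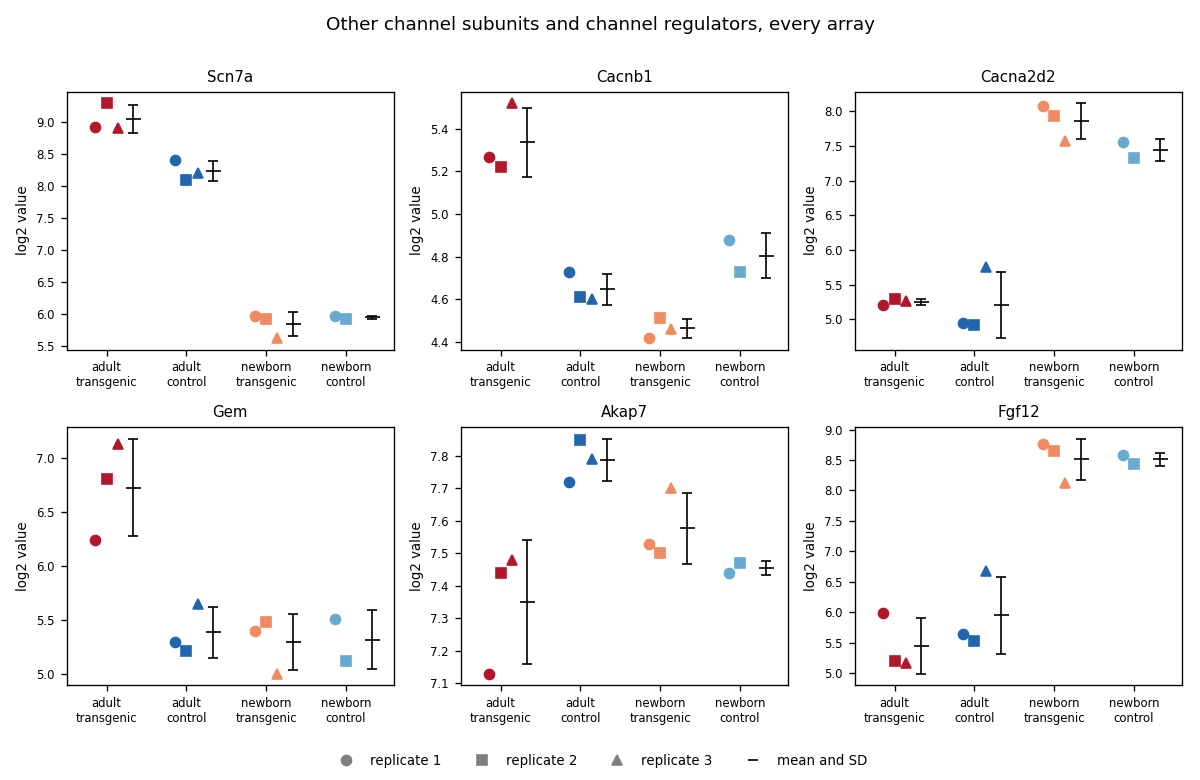
Log2 value (vertical axis) of 3 other channel subunits (top) and 3 channel regulators (bottom) on every array, by group, with marker shapes for replicate numbers and black bars for mean and SD. Scn7a, Cacnb1 and Gem are higher on all 3 adult transgenic arrays than on all 3 adult controls, and Cacna2d2 and Fgf12 are high in newborns.

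The genes whose profile was closest were found by the root mean square difference over the 11 arrays, after each gene was centred on its own mean, among 4576 genes that varied at least as much as the steadiest of the 6. For Scn4b these were P2ry1 (0.190 log2 units), Hook1 (0.206) and Efcab2 (0.227). For Cacna1h they were Brca2 (0.151), Lmnb1 (0.167) and Fam83d (0.186). The closest to Cacna1g was Naa40 (0.183), to Cacna1c Bcl9 (0.212) and to Cacnb2 Clpb (0.144). For Cacna2d1 it was Epas1, at 0.0728 the smallest distance of the 6, beside an SD of Cacna2d1 over the arrays of 0.51.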

How the data were processed

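Expression was measured on 11 Affymetrix arrays in 4 groups. The log2 values of 45101 probe sets were deposited by the authors. Per the submitters' processing notes, the tools were RMA, affy and limma, with no versions or roles. Array medians were 5.12 to 5.18. Gene names came from the platform annotation: 34958 probe sets had 1 symbol, 932 several and 9211 none listed, and 34754 matched RefSeq gene IDs. Each gene was represented by its brightest single-symbol probe set.

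With limma 3.58.1 in R 4.3.3 (lmFit, eBayes), 1 mean per group was fitted to the 11 arrays together, and the code was tested on simulated data. The threshold was an adjusted p of 0.05 (Benjamini-Hochberg, over 18194 genes, or 34958 probe sets for secondary ones). Tests were 2-sided. Arrays have no read depth, so their number limits precision. The alternatives were a replicate block, other filters, gene summaries, variance models and normalisations, batch and atrial terms, and leaving out arrays. The genes and lists were chosen with earlier results of these data known. Named beyond the 6 genes were list members that passed or had the smallest p in a transgenic comparison and, chosen after their values were seen, Rrad, Fgf13, Ank2 and Tnnt3. Listed genes without a single-symbol probe set are not analysed here.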

Additional observations from a re-analysis of the deposited data

Results flagged for a closer look

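The Cacna2d1 probe set 1440397_at was higher on every adult transgenic than on every adult control array, and lower on every newborn transgenic (5.63, 5.32 and 5.28) than on every newborn control array (5.76 and 5.69). The difference between the 2 effects was 0.90 (limma adjusted p = 0.171 over single-symbol probe sets), which did not pass. Cacnb1 was dim, with only its adult transgenic mean above the array medians. For Cacnb1 the difference between the effects was 1.04 and passed (SE 0.16, adjusted p = 0.0200). It lost the call in 9 alternatives, among them without newborn control replicate 1 (0.96, adjusted p = 0.191), without adult control replicate 2 (1.02, adjusted p = 0.0563) and without any 1 newborn transgenic array (adjusted p from 0.0577 to 0.0738). Akap7 was lower on every adult transgenic array than on controls and higher on every newborn transgenic array (7.53, 7.50 and 7.70) than on controls (7.44 and 7.47), with a difference of -0.56 (adjusted p = 0.243) that did not pass. Over all genes, transgenic and control arrays did not overlap, in either direction, for 17.9% in adults and 20.9% in newborns. How many genes did so in opposite directions was not counted. No cause was tested for the patterns above.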

How the results depend on the processing

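The adult call of Scn4b held in 23 of 24 alternatives and was lost with the 6 adult arrays alone and an atrial covariate, an alternative added after the data were seen (-1.53, adjusted p = 0.153; 0 genes called in all). The number of the 6 genes called in adults was 1, against 3 with the replicate block, 2 with adult replicate 3 as a factor or left out of both groups, 0 with the adult-only covariate and 1 to 2 when single arrays were left out. For the difference between ages it was 0, against 1 with array weights, with replicate 3 as a factor or left out, and 0 to 1 when single arrays were left out. For age it was 6 in controls (4 to 6 without single arrays) and 4 in transgenic hearts (4 to 5), where the atrial covariate gave 1, ending the calls of Scn4b, Cacna1c and Cacna1g.

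With the replicate block, Cacna1c (-0.64, adjusted p = 0.0201) and Cacna2d1 (-0.50, adjusted p = 0.0434) were also called. Deviations of same-numbered adult arrays correlated at 0.31, -0.06 and 0.45 and those of newborn arrays at 0.18 and -0.15, so that not every pair was above 0.1 and the numbers were not taken as pairs. Replicate 3 of both adult groups did deviate together (0.45, against -0.42 to -0.09 with other numbers).

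Over all genes the adult count was 1290, against 373 with the compared groups alone, 2183 without replicate 3 of both groups, 2625 with it as a factor, 238 with the atrial covariate, 0 with that covariate in adults alone and 746 to 2267 without single arrays. In newborns it was 0 throughout, also without single arrays. For the difference between ages it was 125, against 53 with the replicate block, 841 with array weights, 711 without replicate 3, 494 with it as a factor, 10 with the atrial covariate and 6 to 540 without single arrays. For age it was 6006 in controls (2829 to 7430; 9349 with every probe set) and 7161 in transgenic hearts (4971 to 7981; 11269 with every probe set; 1828 with the atrial covariate).

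Reversed values were small and not called. Cacna1h in adults turned to -0.05 with the mean of its probe sets and -0.12 to 0.19 without single arrays. Newborn values turned for Cacnb2 to -0.08 with the replicate block, -0.03 with array weights and -0.10 to 0.16 without single arrays, for Cacna2d1 to -0.01 with the mean of its probe sets, and without single arrays ranged from -0.19 to 0.07 for Scn4b and from -0.27 to 0.09 for Cacna1g. The difference between ages turned for Cacna1h to 0.04 without replicate 3 of both groups and 0.19 with the atrial covariate, and for Cacna1c to 0.03 without adult control replicate 3 (-0.68 to 0.03 without single arrays). With the mean of its probe sets the control age difference was not called for Cacna1c (-0.89, adjusted p = 0.101) or Cacna2d1 (1.08, adjusted p = 0.0968). The causes were not tested. The difference between ages could not be fitted with only the compared groups, since it uses all 4.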
